A study of Homo sapiens with 44 samples.

Results

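The genes described here are the 210 zinc finger genes of human chromosome 19 whose symbol is ZNF followed by a number and that were present in Kelly neuroblastoma cells. They were chosen by symbol, by having every annotated exon on chromosome 19, and by a mean of at least 2 CPM (counts per 1000000 counts of the library) in the 3 control RNA libraries of the 1 day Kelly experiment. The count tables list 19923 genes, of which 243 match the symbol and the chromosome, and 33 of these fell under 2 CPM. The 3 genes just inside the threshold were ZNF284 at 2.14, ZNF792 at 2.22 and ZNF404 at 2.30 CPM, and the 3 just outside were ZNF154 at 1.98, ZNF492 at 1.93 and ZNF554 at 1.55 CPM. The 1 day control input levels therefore chose the members and are given only as a description.

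Zinc finger proteins of this family bind DNA through tandem C2H2 fingers joined by a short, conserved linker, and chromosome 19 carries large clusters of them that arose by repeated duplication. Many also carry a KRAB domain, which recruits the co-repressor TRIM28 and histone methyltransferases to silence target sequences, often retrotransposons. N6-methyladenosine (m6A) is a modification of adenosine within mRNA, written mainly by METTL3 with METTL14 at the DRACH sequence, and it is known for marking long internal exons and the region around stop codons. The finger array of these genes is usually encoded in a single long last exon.

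The study treated MYCN-amplified neuroblastoma cells with STM2457, a small-molecule inhibitor of METTL3, and sequenced poly(A) RNA before (input) and after (RIP) pulldown of sonicated RNA with an antibody against m6A. Wild-type Kelly cells were grown with 8 µM STM2457 or DMSO for 1 day or for 6 days, and wild-type NGP cells, another MYCN-amplified neuroblastoma line, with the same dose for 6 days. Kelly cells were also grown under the skin of nude mice, which lack T cells, and the mice received 50 mg/kg STM2457 or the control, labelled DMSO, by daily intraperitoneal injection for 14 days. Each of the 16 groups of treatment and library type held 3 libraries, or 2 in the xenograft, which gives 22 input and 22 RIP libraries.

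Total counts ran from 24.1 to 26.6 M (1 M is 1000000 counts) per input library in the 1 day Kelly experiment, from 5.77 to 31.5 M at 6 days, from 5.49 to 11.6 M in NGP and from 2.14 to 7.27 M in the xenograft. RIP libraries held 4.68 to 36.5 M counts. Biological variation between input libraries, as edgeR's common coefficient, was 0.0725, 0.0913, 0.240 and 0.448 in the same order, so the xenograft and NGP inputs could show only larger changes. The 9 adrenergic neuroblastoma markers had counts in every input library, with summed levels of 8366 to 14187 CPM. The 5 mesenchymal markers summed to 166 to 1813 CPM, highest in NGP. Human stroma, endothelium and blood markers summed to between 10.9 and 115 CPM, with several at 0. In the xenograft such cells would come from the mouse, so these human markers do not measure them. The labels do not say whether mouse reads were removed before counting. In these bulk samples, fewer cells of a type and less RNA per cell cannot be told apart.

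The transcripts share a repeat. The rule read no sequence, but the ZNF symbol marks zinc finger genes, whose fingers are joined by this linker. How often the linker and the bases within it occur is therefore largely fixed by the choice of members. A linker motif, ACNGGNGANAANCC in the reading frame on the coding strand, was found in the coding sequence of 181 of the 210 members (86.2%), against 471 of the 13325 tested genes with a coding sequence (3.53%) and 149 of 222 zinc finger genes of other chromosomes with a coding sequence (67.1%). The members held a median of 6 such linkers and 12 finger patterns, up to 25 linkers in one gene and up to 36 fingers in ZNF208. The linker often spells AAACC, which is one form of DRACH: 76.6% of the 1266 linkers of the members did so. AAACC occurred 5.47 times per kb of coding sequence in the median member and 0.795 times in the median gene tested, while all DRACH forms together occurred 21.9 and 19.6 times. Of the 2007 AAACC in the members 48.3% lay in such linkers, against 5.97% of the 28777 in all genes tested. GGACT, another DRACH form, went the other way, at 0.643 per kb in the members and 0.989 in all genes. The members also had a longer longest exon (median 3579 against 2236 bases) and a lower GC content of coding sequence (42.3% against 52.9%). A match to a motif is not a measured m6A site.

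To show this repeat, 1 finger and its linkers on both sides are printed for 5 members that recur in the results, each as 98 bases of the coding strand, 5′ to 3′, of GRCh38 read through the GENCODE 44 annotation, within a coding exon, with AAACC in capitals. ZNF443, ZNF615 and ZNF724 were among the most strongly pulled down members, and ZNF787 is a GC-rich member whose input rose with STM2457 in Kelly cells. ZNF569 had a ratio above 0 in NGP and below 0, though not called, in Kelly cultures, a difference that was not tested. All lie on the minus strand, at chr19:12431417-12431514, chr19:51994048-51994145, chr19:23223151-23223248, chr19:37413768-37413865 and chr19:56088726-56088823.
ZNF443: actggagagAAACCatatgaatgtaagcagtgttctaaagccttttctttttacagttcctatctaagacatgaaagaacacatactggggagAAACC
ZNF615: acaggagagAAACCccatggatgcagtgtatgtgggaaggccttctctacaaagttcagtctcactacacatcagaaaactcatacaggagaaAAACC
ZNF724: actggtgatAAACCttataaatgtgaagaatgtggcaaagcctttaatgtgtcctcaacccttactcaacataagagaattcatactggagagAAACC
ZNF569: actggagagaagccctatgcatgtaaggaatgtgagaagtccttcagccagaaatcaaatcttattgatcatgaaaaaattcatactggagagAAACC
ZNF787: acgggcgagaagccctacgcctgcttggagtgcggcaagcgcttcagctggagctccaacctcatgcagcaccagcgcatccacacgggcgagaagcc
The first 3 carry AAACC in both linkers and ZNF569 in the second alone. ZNF787 carries the linker with no AAACC at either end and has 65.3% GC over the stretch. ZNF443 and ZNF787 matched at 49.0% of the 98 positions, and ZNF724 and ZNF569 at 71.4%. The 5 were picked for display and do not show how AAACC and pulldown go together. ZNF738, not printed, carries AAACC in both linkers of such a stretch and had the lowest median ratio of RIP over input in DMSO. Over the members, Spearman's correlation of AAACC per kb with that ratio was -0.21 (n = 210) and -0.03 (n = 209) in Kelly cells at 1 and 6 days. It was 0.44 (n = 182) in NGP and -0.05 (n = 205) in the xenograft.

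Most members were low in abundance, and which of them were present differed between the lines. In Kelly 1 day control inputs the lowest, median and highest member had 2.14, 10.0 and 174 CPM. The medians in control inputs were 4.43 CPM in 6 day Kelly cells, 3.49 in NGP and 7.75 in xenografts. The 5 members with the highest CPM at 1 day were ZNF146, ZNF317, ZNF444, ZNF574 and ZNF331, which per kb of exon stood at 42.0, 12.1, 8.31, 12.6 and 6.39 CPM per kb. Per kb ZNF146 was again first, and the shorter ZNF428 (31.8), ZNF581 (19.2), ZNF358 (15.1) and ZNF787 (14.9) came next. ZNF146 encodes a protein made almost wholly of fingers, and ZNF331 is an imprinted gene. ZNF428 was highest in the other 3 experiments, at 277, 273 and 460 CPM. Of the 243 chromosome 19 genes, 125 had at least 2 CPM in control inputs of both NGP and 6 day Kelly cells, 46 in Kelly alone, 16 in NGP alone and 56 in neither. The genes were chosen for presence in Kelly, so a lower level in NGP is partly fixed by the choice of members.

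**Figure D1:**
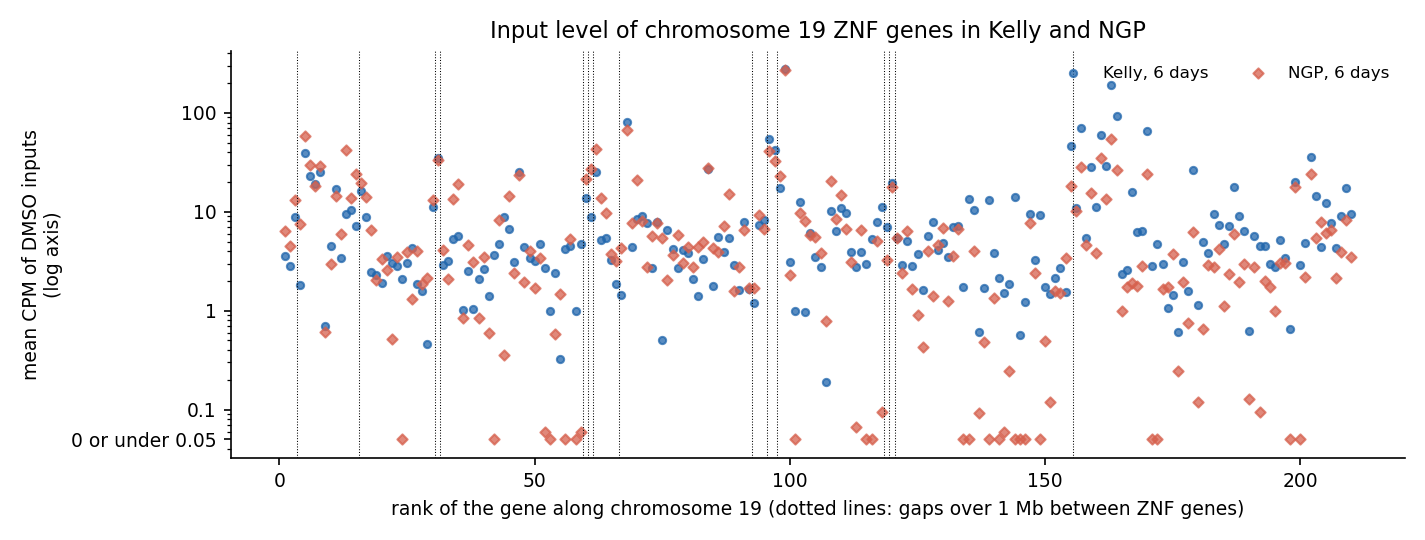
Mean control input level (CPM, log axis) of each of the 210 members in NGP cells and in 6 day Kelly cells, ordered by position along chromosome 19, with dotted lines at gaps of over 1 Mb. Points at the bottom edge mark members at 0 or under 0.05 CPM; 17 members had no count in any NGP input library.

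Of the 210 members, 17 had no count in any of the 6 NGP input libraries, which together held 54.2 M counts. The share of all genes at the same minimum level that had no count there was not counted, so the 17 cannot be called particular to the members. The most abundant of them in Kelly cells, chosen after their values were seen, was ZNF880. Its 6 day Kelly control inputs had 13.4, 12.6 and 14.9 CPM, at least 36.9-fold higher than the floor of 3 counts per library in NGP controls, which averaged 0.369 CPM. ZNF677 stood at 9.26 ± 1.07 CPM (SD, n = 3) in the same Kelly libraries and at least 25.1-fold above that floor. ZNF264, ZNF91 and ZNF85 were at least 12.9-fold, 11.3-fold and 9.88-fold higher. Others of the 17 were low in Kelly cells too, down to ZNF888 at 0.56 CPM, at least 1.52-fold above that floor. ZNF91 encodes a repressor of SVA retrotransposons. When members were divided into 16 blocks wherever neighbours lay over 1 Mb apart, 6 of the 17 lay in the block of 35 members from 51.57 to 53.58 Mb, which holds ZNF880 and ZNF677, 4 in the block of 28 from 19.67 to 23.95 Mb, which holds ZNF91 and ZNF85, 4 in the block of 55 from 55.48 to 58.48 Mb, which holds ZNF264, and the other 3 in 2 further blocks. The median control level in the first of these blocks was 3.52 CPM in 6 day Kelly cells and 1.35 in NGP. Floors cover counting error only, and 5 of the 17 also had no count in any NGP RIP library.

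The m6A antibody pulled down most of these transcripts beyond the average gene in control cells. Enrichment is the ratio of RIP to input after each library was scaled to its own typical gene, so it is relative, and a member was called enriched at an adjusted p under 0.05 with at least a doubling. In Kelly cells at 1 day 161 of 210 members were enriched and 5 depleted, where 26.3% of all genes tested were enriched and 29.1% depleted. At 6 days 111 of 209 were enriched and 4 depleted, against 25.8% and 27.3% of all genes. In NGP the counts were 137 enriched and 7 depleted of 182, against 20.9% and 19% of all genes. In the xenograft, with 2 libraries a group, 3 of 205 were enriched and 1 depleted, against 1.61% and 2.15%; DESeq2 called 23, and leaving out 1 xenograft RIP library at a time gave 0 or 1 without either DMSO library and 17 and 20 without STM2457 replicates 1 and 2. Without any 1 of its input libraries 0 were called. The median log2 ratio of the members was 1.67, 1.83, 1.89 and 1.49 in the 4 experiments, and that of all genes tested lay between -0.16 and 0.08. The 1 day ratios share their input libraries with the rule, whereas the other 3 experiments do not. These calls came from the quasi-likelihood test of edgeR, with p-values adjusted over all genes after Benjamini and Hochberg.

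**Figure D2:**
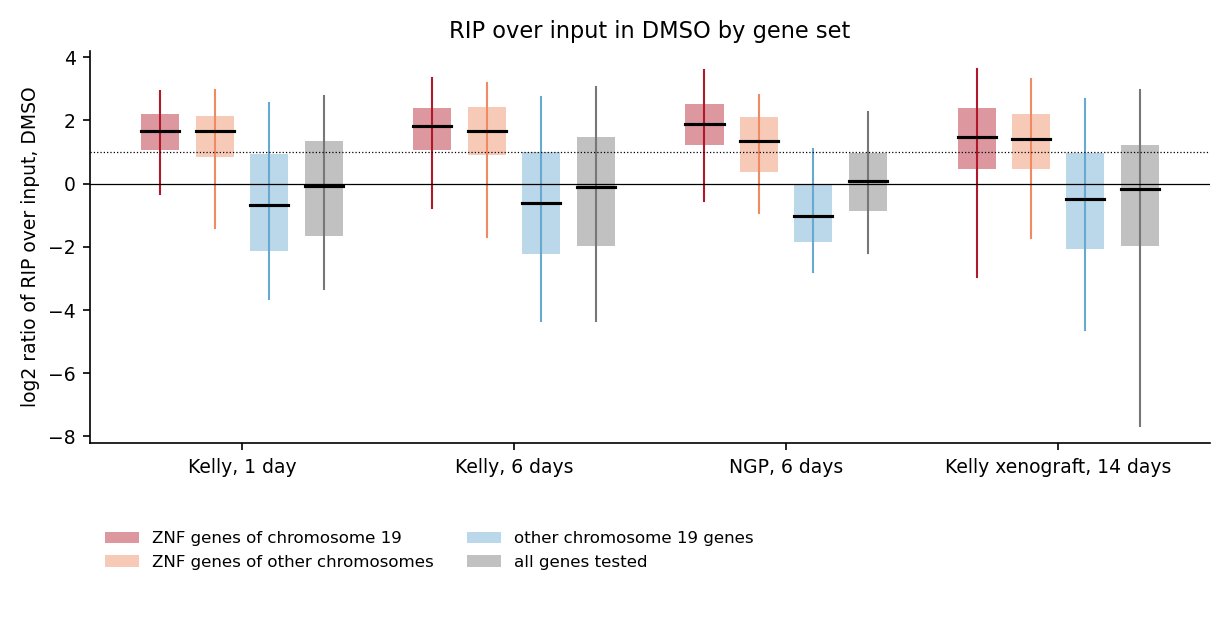
Log2 ratio of RIP to input in control samples for the members, zinc finger genes of other chromosomes, other chromosome 19 genes and all genes tested, in the 4 experiments. The centre line is the median, the box spans the 25th to 75th percentile, the thin line the 5th to 95th percentile, and the dotted line marks a log2 ratio of 1; the member medians lie between 1.49 and 1.89, and those of other chromosome 19 genes between -1.02 and -0.48.

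Zinc finger genes of other chromosomes had similar ratios in Kelly cells. The other genes of chromosome 19 were enriched there in numbers near the share over all genes and were depleted more often. Of 223 zinc finger genes on other chromosomes, 157 were enriched at 1 day and 142 at 6 days in Kelly cells, with median log2 ratios of 1.67 and 1.68. In NGP 128 of 215 were enriched, with a median of 1.34. Of the other 624 chromosome 19 genes at the same minimum of 2 CPM, 149 and 150 were enriched in Kelly cells, where all genes gave 26.3% and 25.8%. In NGP 35 of 611 were enriched, where all genes gave 20.9%. Depleted were 257 and 250 in Kelly cells and 299 in NGP, where all genes gave 29.1%, 27.3% and 19%. The median ratio of these chromosome 19 genes was -0.68, -0.62 and -1.02. Differences between these gene sets were described and not tested. Per control RIP library, the member median lay between 1.57 and 1.63 at 1 day, 1.44 and 1.97 at 6 days, 1.48 and 1.77 in NGP and 1.00 and 1.58 in the xenograft. Of 181 members tested in all 3 cell cultures, 80 were enriched in all 3 and 17 in none. Of 176 tested in all 4 experiments, 129 had a ratio above 0 in all and 7 a ratio below 0 in all.

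ZNF443, which encodes a protein of 16 finger patterns, had the highest median ratio of all members over the 4 experiments. Its Kelly 1 day control inputs had 7.05, 5.18 and 5.42 CPM and its RIP libraries 35.6, 50.3 and 48.5 CPM, a log2 ratio of 2.98 (SE 0.24, edgeR adjusted p = 1.10e-07). In NGP the inputs had 2.26, 0.895 and 2.49 CPM and the RIP libraries 41.1, 34.7 and 27.1 CPM. Every RIP library lay above every input library in both. About 35.5% of the 50-base words of its transcript also occur in a transcript of another gene, mainly the near-copy ZNF799. Reads from such words may not be assignable to 1 gene, and 16 of the 210 members shared over 10% of their words. ZNF547, ZNF724 and ZNF615 followed, with ratios of 3.65, 3.17 and 2.61 at 1 day and of 3.19, 4.10 and 4.53 in NGP. ZNF547 holds 10 finger patterns with no linker of the form searched, whereas ZNF724 holds 9 linkers and ZNF615 holds 12, of which 9 and 11 contain AAACC. ZNF615 had NGP control inputs of 0, 1.07 and 0.199 CPM and RIP libraries of 10.3, 6.10 and 8.77 CPM.

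ZNF865, with 20 finger patterns and 72.0% GC, was strongly pulled down in Kelly cells and had a lower ratio in NGP. Its Kelly 6 day controls had 33.6, 27.3 and 24.9 CPM in input and 304, 268 and 341 CPM in RIP. Its NGP controls had 15.5, 14.5 and 16.0 CPM in input and 44.1, 22.2 and 15.7 CPM in RIP. The log2 ratio was 3.42 and 3.37 at the 2 Kelly times, and 0.72 in NGP, where it missed the threshold (edgeR adjusted p = 0.0541). In the xenograft the controls had 45.3 and 47.4 CPM in input and 355 and 573 CPM in RIP, a ratio of 3.37 (edgeR adjusted p = 0.0479) that missed the threshold under 9 of 14 alternatives, with adjusted p up to 0.179. The difference between NGP and the other experiments was not tested.

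The lowest members of the pulldown were few, and 3 of the 5 had 5 finger patterns or fewer. ZNF738, with 5 finger patterns in its GENCODE 44 coding sequence, had 41.4, 40.0 and 46.3 CPM in Kelly 1 day control inputs and 2.89, 1.70 and 7.23 CPM in RIP, a log2 ratio of -3.38. In NGP its inputs had 32.9, 17.7 and 19.3 CPM and its RIP libraries 12.8, 23.4 and 22.1 CPM, which overlapped. ZNF428, with 1 finger pattern and 64.7% GC, was depleted in the 3 cell cultures and the xenograft. Its ratios were -2.26, -2.72, -2.36 and -2.96, the last with an edgeR adjusted p of 0.0283, and in Kelly cells at 6 days it had 281, 279 and 270 CPM in control input against 36.7, 34.5 and 58.2 CPM in RIP. ZNF358 had ratios of -1.97, -1.77, -2.91 and -1.85 and ZNF414, with 1 finger pattern, -1.98, -1.35, -2.21 and -0.76. The xenograft call of ZNF428 was lost under 7 of 14 alternatives, among them leaving out any 1 of the DMSO RIP or the input libraries (edgeR adjusted p up to 0.673). Scaling to mitochondrial mRNAs moved the 6 day median of all genes from -0.10 to 4.77, and with it the ratios of ZNF428 and ZNF358 to 2.46 and 3.25, still below that median. ZNF569 was the fifth lowest by its median, at -1.02 and -2.22 in Kelly cells (edgeR adjusted p = 0.364 and 0.0759) but 1.39 in NGP (adjusted p = 0.0304), where control inputs had 4.62, 0.895 and 6.37 CPM and RIP libraries 7.14, 10.3 and 16.5 CPM.

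Members rich in GC separated NGP from Kelly. For 24 members with at least 60% GC in the coding sequence, a class set after the values were seen, the median log2 ratio was 2.09, 1.96 and 2.13 in the Kelly 1 day, Kelly 6 day and xenograft controls and 0.17 in NGP. The other 186 had 1.66, 1.83 and 1.42 in the Kelly experiments and 2.03 in NGP. In NGP 2 of the 22 GC-rich members tested were enriched and 6 depleted. Over the members, Spearman's correlation of GC content with the ratio was 0.31 (n = 210), 0.13 (n = 209) and 0.12 (n = 205) in the Kelly experiments and -0.48 (n = 182) in NGP. All genes tested gave 0.13, 0.17, 0.09 and -0.44, so the sign in NGP was also that of all genes tested. In single control RIP libraries it ran from -0.56 to -0.28 over all genes in NGP and from 0.11 to 0.20 in Kelly cultures. The genes are not independent replicates. The part of library preparation in this difference was not tested. Across members the ratios correlated at 0.79 between the Kelly times (n = 209), at 0.44 between Kelly and NGP at 6 days (n = 181) and at 0.55 between Kelly at 1 day and the xenograft (n = 205), each pair sharing gene length and base composition.

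**Figure D3:**
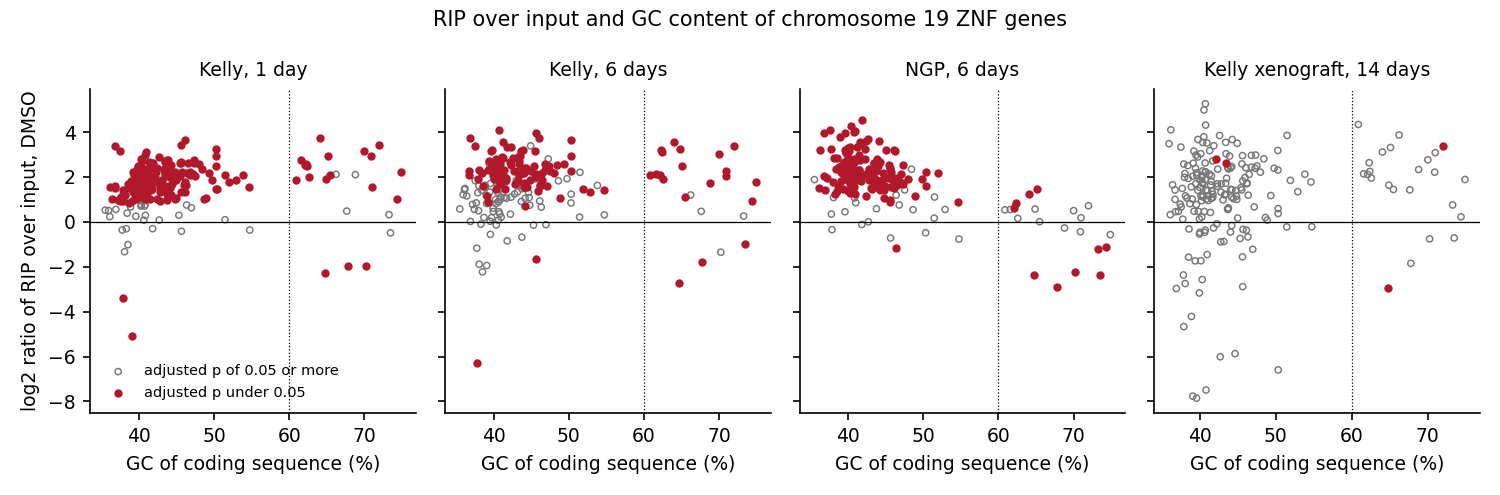
Log2 ratio of RIP to input in control samples against the GC content of the coding sequence (percent) of each member, 1 panel per experiment. Filled points had an adjusted p under 0.05 and the dotted line marks 60% GC; GC-rich members lie high in the Kelly panels (medians 2.09 and 1.96) and near 0 in NGP (0.17).

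With STM2457, the enrichment of the members relative to other genes changed little. In Kelly cells at 1 day 3 of 210 members rose and 2 fell, where 17.2% of all genes tested were called (9.53% up and 7.62% down), and 18 members had an unadjusted p under 0.05. At 6 days 0 of 209 were called by edgeR, against 2.06% of all genes (1.26% up and 0.803% down). DESeq2 called 4, and 17 had an unadjusted p under 0.05. In NGP and the xenograft 0 of 182 and 0 of 205 were called by edgeR or DESeq2, against 0% of all genes by edgeR, and the members with an unadjusted p under 0.05 numbered 6 and 9. The median change of the members was 0.05, 0.47, -0.14 and -0.07 on the log2 scale, and of all genes -0.03, 0.20, -0.00 and 0.12. The 6 day median rested on 1 library: the STM2457 RIP library of replicate 1 had a summed member level of 11818 CPM against 7331 and 6361 in the other two, and without it the median was -0.04. These values are relative to the average gene. Scaled instead to the 13 mitochondrial mRNAs, the direction turned. At 1 day 159 of 210 members fell and 0 rose, where 8323 of 13669 genes tested fell and 13 rose. The medians were -1.39 for the members and -1.46 for all genes tested. At 6 days 31 of 209 members fell and 0 rose, where 3929 of 13324 genes tested fell and 9 rose. The 5 calls at 1 day became 10 to 14 without 1 of the STM2457 RIP libraries and 0 to 2 without DMSO RIP replicate 1, DMSO input replicate 1 or 3, or any STM2457 input library. At 6 days leaving out STM2457 RIP replicate 1, 2 or 3 gave 6, 4 and 4 calls.

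The members that rose in relative enrichment at 1 day were ZNF432, ZNF548 and ZNF561, all with multi-finger arrays, and each reversed under the mitochondrial scaling. ZNF432 had RIP levels of 75.7, 72.9 and 82.5 CPM with DMSO and 140, 111 and 116 CPM with STM2457, while its inputs went from 11.4, 10.5 and 13 to 13.2, 12.6 and 13.5 CPM. Its RIP libraries did not overlap, and the ratio rose by a log2 of 0.59 (SE 0.18, edgeR adjusted p = 0.0386), or -0.85 with mitochondrial scaling. ZNF548 rose by 0.53 (edgeR adjusted p = 0.0269), with RIP levels of 113, 121 and 103 CPM and then 143, 135 and 140 CPM, and ZNF561 by 0.50 (adjusted p = 0.0456), with 61.3, 74.6 and 61.5 CPM and then 107, 93.7 and 100 CPM. The same mitochondrial scaling gave -0.91 and -0.93 for these. ZNF574 and ZNF787 fell. ZNF574 had RIP levels of 236, 207 and 225 CPM with DMSO and 181, 192 and 182 CPM with STM2457, which did not overlap, and inputs of 59.9, 60.1 and 56.2 and then 71.2, 64.1 and 66.2 CPM, a change of -0.37 (edgeR adjusted p = 0.0445). ZNF787 changed by -0.86 (SE 0.23, edgeR adjusted p = 0.0199) while its RIP libraries overlapped, at 73.3, 72.1 and 52.2 CPM and 61.6, 41.4 and 52.5 CPM. Its input libraries, given with the input changes, did not overlap. Of 17 alternative settings ZNF787 missed the threshold under 4, ZNF548 under 5, ZNF432 under 8, ZNF561 under 9 and ZNF574 under 14, mostly with 1 library left out.

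Input levels, the abundance of the transcripts, moved in few members, mostly upward. In Kelly cells at 1 day 16 of 210 members rose and 2 fell, where 9.41% of all genes tested rose and 8.06% fell. At 6 days 12 of 201 rose and 4 fell, against 11.9% and 14.7% of all genes. The share of members that rose was thus close to the background at 1 day and at 6 days under it, and the share that fell was below the background at both times. Low counts make a change harder to call, and most members were low in abundance. Of the 106 members of at least 10 CPM, 11.3% rose and 1.89% fell at 1 day, and 7.55% and 3.77% at 6 days. The median change was 0.07 and 0.08 on the log2 scale, against 0.01 and -0.00 for all genes, and 137 of 210 and 122 of 201 members had a change above 0. The 1 day comparison shares its control libraries with the rule, and members chosen over all 22 inputs gave 16 up and 2 down at 1 day and 12 up and 4 down at 6 days. The 18 calls at 1 day fell to 10, 8 and 6 without DMSO replicate 1, STM2457 replicate 1 and STM2457 replicate 2, and a single fit of all 22 inputs, which shares the spread of the xenograft, gave 0 at 1 day and 2 at 6 days. Among zinc finger genes of other chromosomes, the 1 day counts were 31 up and 6 down, and the 6 day counts 42 up and 9 down.

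**Figure D4:**
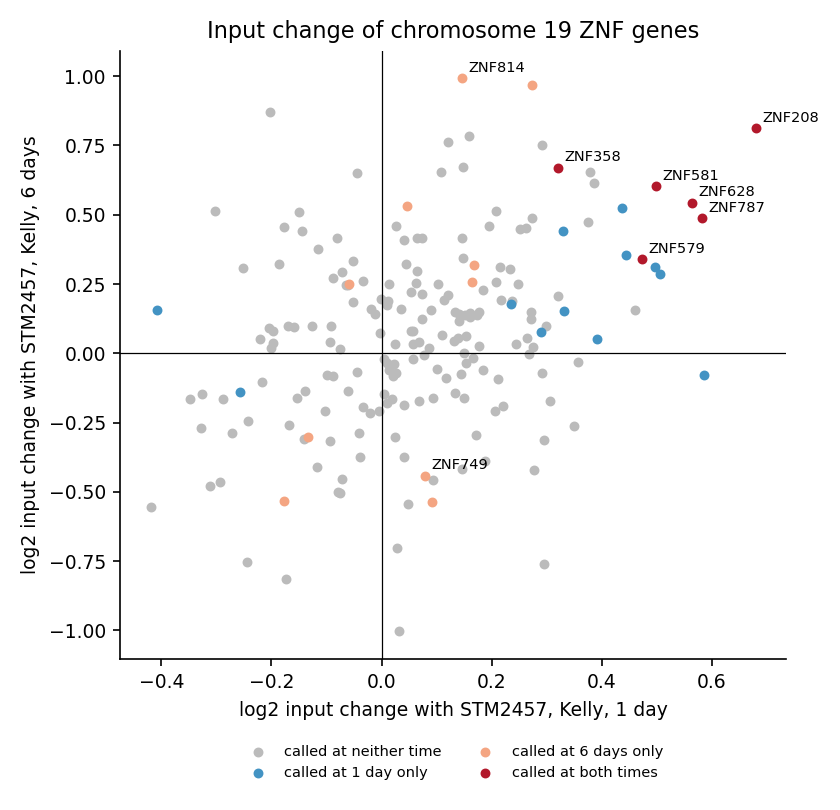
Log2 change of input level with STM2457 in Kelly cells at 1 day (horizontal) and at 6 days (vertical) for each member tested at both times, with members called at 1 time, at both or at neither marked as the legend states. The 6 members called at both times lie in the upper right, and none was called in opposite directions.

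At 1 day the largest rises were in ZNF208, a gene of 36 finger patterns, and in ZNF114. ZNF208 had 3.39, 2.03 and 3.61 CPM with DMSO and 5.17, 5.63 and 3.99 CPM with STM2457, a log2 change of 0.68 (SE 0.23, edgeR adjusted p = 0.0459). ZNF114 had 4.28, 5.63 and 5.08 CPM and then 6.22, 8.32 and 8.39 CPM, a change of 0.59 (adjusted p = 0.0249 by edgeR). The groups did not overlap for either, and at these levels the counts per library are low. ZNF787 was the most firmly measured: 54.3, 56.5 and 53.9 CPM with DMSO and 78.7, 87.5 and 85.0 CPM with STM2457, a change of 0.58 (SE 0.06, edgeR adjusted p = 1.09e-05). ZNF628, ZNF253, ZNF581, ZNF829, ZNF579, ZNF234 and ZNF420 rose by 0.44 to 0.56. ZNF557 and ZNF121 fell, by 0.41 and 0.26 on the log2 scale. ZNF557, of 10 finger patterns, had 11.6, 11.8 and 11.6 CPM with DMSO and 8.22, 8.36 and 10.2 CPM with STM2457, with no overlap (edgeR adjusted p = 0.0383). The libraries of ZNF121 overlapped. Of 11 alternative settings ZNF787 missed the threshold under 1, the fit of all 22 inputs, ZNF114 under 4, ZNF208 under 5 and ZNF557 under 6.

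At 6 days ZNF814, ZNF737 and ZNF208 rose most. ZNF814, with 23 finger patterns, had 3.31, 2.27 and 2.67 CPM with DMSO and 6.17, 6.29 and 4.68 CPM with STM2457, a log2 change of 0.99 (SE 0.24, edgeR adjusted p = 0.00582). Its exons overlap those of ZNF587 and other genes, and fragments in shared bases were not counted. ZNF737, in the same block as ZNF208, had 2.56, 2.58 and 2.75 CPM and then 5.61, 5.97 and 4.68 CPM, a change of 0.97 (adjusted p = 0.00532 by edgeR). ZNF208 had 2.98, 3.21 and 1.94 CPM and then 6.07, 4.26 and 5.03 CPM, a change of 0.81 (edgeR adjusted p = 0.0322). In all 3 the groups did not overlap. ZNF358, ZNF581, ZNF628, ZNF784, ZNF787, ZNF579 and ZNF574 rose by 0.32 to 0.67. ZNF382, ZNF880, ZNF749 and ZNF331 fell. ZNF382 had 8.44, 8.14 and 6.64 CPM with DMSO and 5.48, 5.84 and 6.07 CPM with STM2457, a change of -0.54 (edgeR adjusted p = 0.0404). ZNF880 had 13.4, 12.6 and 14.9 CPM and then 12.2, 9.34 and 7.81 CPM, a change of -0.53 (adjusted p = 0.0254 by edgeR). ZNF749 had 28.2, 24.1 and 26.9 CPM and then 20.7, 22.1 and 19.4 CPM, a change of -0.44 (edgeR adjusted p = 0.00672). Treated and control libraries of these 3 did not overlap, and ZNF331 fell by 0.30 on the log2 scale. Of 11 alternatives ZNF358 and ZNF581 missed the threshold under 0, ZNF814, ZNF737 and ZNF749 under 1, again the fit of all 22 inputs, ZNF208 and ZNF880 under 4 and ZNF382 under 8.

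Among the members, 6 rose at both Kelly times: ZNF208, ZNF358, ZNF579, ZNF581, ZNF628 and ZNF787. None fell at both, and none was called in opposite directions. The share of all genes that rose at both times was not counted, so the 6 have no background to be set against. All but ZNF208 have at least 60% GC in the coding sequence, and none of those 5 holds a linker with AAACC. Of the 24 members in that GC class 5 rose at 1 day and 7 at 6 days, and of the others 11 of 186 and 5 of 177. Over all genes tested 9.41% rose at 1 day and 11.9% at 6 days, and the share among all genes of that GC content was not counted. Over all members the input change had Spearman correlations with GC content of -0.04 (n = 210) and -0.003 (n = 201). All genes tested gave 0.08 (n = 12933) and 0.002 (n = 12507). At 6 days ZNF787 had 192, 195 and 192 CPM with DMSO and 262, 281 and 335 CPM with STM2457, ZNF358 had 41.1, 40.1 and 37.0 and then 61.2, 67.8 and 76.0 CPM, and ZNF581 had 28.4, 30.8 and 29.1 and then 45.5, 52.7 and 45.3 CPM. In each, every treated library was above every control library. Along the chromosome, ZNF628, ZNF579, ZNF581 and ZNF787 lie among 8 neighbouring members at chr19:55476617-56121295 (GRCh38), a stretch of 645 kb picked out after the calls were seen, in which all 8 have 62.3 to 74.9% GC. Of these 8, 4 rose at 1 day, 5 at 6 days and 4 at both, where 9.41% and 11.9% of all genes tested rose at 1 and 6 days. The stretch was picked by these same calls, so its counts are a description only. Exons of ZNF581 overlap those of CCDC106 and ZNF580.

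**Figure D5:**
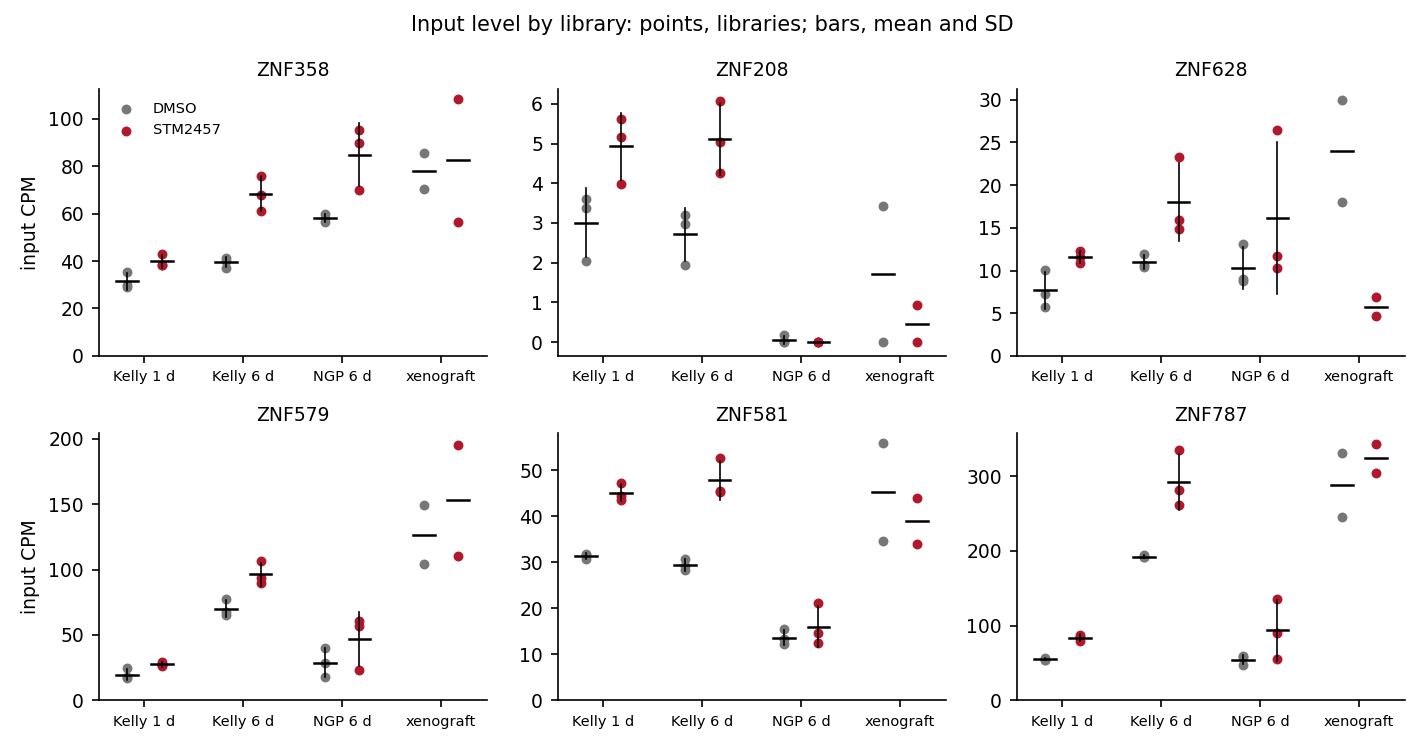
Input level (CPM) in every library of the 4 experiments for the 6 members that rose at both Kelly times, with DMSO and STM2457 libraries as separate points, the mean as a horizontal bar and, with 3 libraries, the SD as a vertical line. In Kelly cells at 6 days the DMSO libraries of ZNF787 sit at 192 to 195 CPM and the STM2457 libraries at 262 to 335 CPM.

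The NGP and xenograft inputs gave no called member, 0 of 169 in each by edgeR or DESeq2. Of all genes tested edgeR called 4.23% in NGP (2.07% up and 2.16% down) and 0% in the xenograft, and 10 and 14 members had an unadjusted p under 0.05. The median change was 0.14 in NGP and 0.05 in the xenograft, and 109 and 87 of the 169 members had a change above 0. ZNF787 in NGP had 46.9, 57.7 and 58.6 CPM with DMSO and 90.4, 135 and 54.6 CPM with STM2457, which overlapped, with a change of 0.70 (edgeR adjusted p = 0.0915). ZNF358 and ZNF579 changed by 0.47 and 0.63 in NGP (edgeR adjusted p = 0.143 and 0.278). ZNF208 had too few counts to be tested in NGP or the xenograft. Without STM2457 input replicate 1 of the xenograft 31 members were called and without replicate 2 there 8, each leaving 1 treated library that is assumed to vary like the control. In NGP 1 was called without DMSO replicate 1 and 1 without STM2457 replicate 3. In the xenograft ZNF787 had 331 and 246 CPM with the control and 343 and 305 CPM with STM2457, which overlapped.

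The responses at 6 days and at 1 day in Kelly cells were compared directly, as a difference of the input changes. Of 210 members 1 was called higher at 6 days and 1 lower, where 8.41% of all genes tested were called, 3.67% higher and 4.73% lower, and 24 members had an unadjusted p under 0.05. ZNF814 responded more at 6 days, by a log2 difference of 0.88 (edgeR adjusted p = 0.0236). Its 1 day inputs had 12.8, 10.5 and 12.2 CPM with DMSO and 14.0, 12.9 and 13.1 CPM with STM2457. ZNF749 went from 17.7, 20.5 and 17.2 CPM to 21.3, 20.2 and 18.1 CPM at 1 day, with overlap, and its difference was -0.50 (edgeR adjusted p = 0.0438). Of 16 alternatives ZNF814 missed the threshold under 5 and ZNF749 under 12, and with a library left out the count of members called ran from 0, without DMSO replicate 1 or STM2457 replicate 2 of the 1 day experiment, to 6, without STM2457 replicate 3 at 6 days. Between Kelly and NGP at 6 days 0 of 206 members differed by edgeR, against 1.36% of all genes (0.565% higher and 0.796% lower). DESeq2 called 1, and 9 reached an unadjusted p below 0.05. Across 201 members the 1 day and 6 day input changes correlated at 0.32 (Spearman), over different libraries of the same line.

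Summed over all 210 members, the share of input counts did not overlap between treatments in the 3 cell cultures. It was 0.301 to 0.328% with DMSO and 0.335 to 0.346% with STM2457 at 1 day, 0.228 to 0.231% and 0.271 to 0.280% at 6 days, and 0.176 to 0.190% and 0.206 to 0.230% in NGP. In the xenograft the shares overlapped, at 0.338 to 0.376% and 0.362 to 0.372%. The sums lean on the most abundant members. Without the 6 that rose at both Kelly times they were 2871 to 3134 CPM and 3129 to 3246 CPM at 1 day, which overlapped, and 1948 to 1969 and 2206 to 2231 CPM at 6 days, which did not. The share of RIP counts overlapped between DMSO and STM2457 at 1 day (1.01 to 1.09% and 1.07 to 1.18%), at 6 days (0.665 to 0.821% and 0.636 to 1.18%) and in NGP (0.474 to 0.571% and 0.50 to 0.554%). In the xenograft it did not overlap and was lower with STM2457, at 0.872 to 0.942% and 0.735 to 0.777%, with 2 libraries a group. The summed input level of zinc finger genes of other chromosomes also did not overlap between treatments in the 3 cultures. It was 8211 to 8487 CPM with DMSO and 8981 to 9189 CPM with STM2457 at 1 day. At 6 days it was 5805 to 5922 and 6945 to 7244 CPM, and in NGP 5956.5 to 6290 and 7165 to 7449 CPM. The rise in the cultures was thus not particular to the members. These shares and sums were not tested.

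The partners through which KRAB zinc finger proteins act were read from a list of 21 genes. In Kelly inputs at 1 day 4 of 21 rose and 2 fell, where 9.41% and 8.06% of all genes did. TRIM28, the co-repressor that binds the KRAB domain, had 988 ± 37.1 CPM in control inputs against 821 ± 14.7 CPM in treated ones (SD, n = 3). This was a change of -0.29 on the log2 scale (edgeR adjusted p = 0.000145), and HDAC2, a histone deacetylase, changed by -0.23. TASOR, MORC2, ATF7IP and CBX5 rose by 0.43, 0.21, 0.19 and 0.16; TASOR and MORC2 act with the HUSH silencing complex, ATF7IP partners the methyltransferase SETDB1, and CBX5 encodes the heterochromatin protein HP1 alpha. At 6 days 5 of 20 rose and 1 fell, against 11.9% and 14.7% of all genes: CHD3 by 0.49, MORC2 by 0.40, SUV39H1 by 0.39, SETDB1 by 0.36 and EHMT2 by 0.22, while HDAC2 changed by -0.24. In NGP HDAC2 alone of 20 was called, at -0.58 (edgeR adjusted p = 0.0281), and in the xenograft 0 of 21 were called. The fall of TRIM28 was thus called only at 1 day. Its change was -0.03 for 6 day Kelly inputs, -0.01 for NGP inputs and 0.04 for xenograft inputs (edgeR adjusted p = 0.810, 0.974 and 0.962). Unlike the members, the partners were not enriched in the pulldown as a group, a contrast that was not tested. Their median log2 ratios were -0.61, -1.21, 0.04 and -0.79 in the 4 experiments. In Kelly cells 4 of 21 were enriched and 10 depleted at 1 day, against 26.3% and 29.1% of all genes. At 6 days 6 were enriched and 10 depleted, against 25.8% and 27.3%. In NGP 4 of 20 were enriched and 3 depleted, against 20.9% and 19%. In the xenograft 0 of 21 were enriched and 1 depleted, against 1.61% and 2.15%. TRIM28 had a ratio of -4.56 in Kelly cells at 1 day, while SETDB1, TASOR, SUV39H1 and SUV39H2 had 1.86, 1.61, 1.57 and 1.54.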

How the data were processed

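The 44 tables were deposited by the authors as raw counts of fragments per gene, made per the file headers with featureCounts 1.5.3 in paired-end mode over exons of the protein-coding GENCODE 33 annotation, with no strand or multi-overlap option. Reads from a gene and an antisense partner cannot be told apart, and fragments over bases shared by 2 genes were left out, which touches 69 of the 210 members. The submitters' processing notes also list Trimmomatic 0.36 and HISAT2 2.1.0 and the build GRCh38. CPM here are counts per 1000000 counts of a library.

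Each experiment was fitted alone in R 4.3.3 with edgeR 4.0.16 (filterByExpr with a minimum count of 10, TMM, quasi-likelihood test): STM2457 against DMSO in inputs, RIP against input in DMSO, and the interaction of both. Inputs of 2 experiments were fitted together for response differences. P-values were adjusted over all genes by Benjamini-Hochberg, with a threshold of 0.05, and enrichment also needed a log2 ratio of at least 1. The procedure was tested on simulated data. DESeq2 1.42.0, other scalings, filters, member rules, a replicate block and leaving out each library were tried. Members and gene lists were chosen with earlier results of these data known. Genes were named by rule: per experiment the 10 largest called changes each way, members called at both Kelly times, the 5 highest and lowest DMSO ratios, the 5 most abundant, the 3 either side of the level threshold, the 3 largest response differences each way, and called partners. Nothing in the labels says that replicates came from separate cultures, so p-values measure only the spread between these samples, which may be technical. Over 40 replicate pairs a chi-square test of counts gave at least 2.73 per degree of freedom, above sampling noise, and none was treated as 1 library deposited again. Coding sequences came from GENCODE 44, which holds 94.4% of the 3815 deposited member exons unchanged.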

Additional observations from a re-analysis of the deposited data

Results flagged for a closer look

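By a test of the difference itself, the input response of ZNF749 was lower at 6 days than at 1 day in Kelly cells, by a log2 difference of -0.50, and that of ZNF814 higher, by 0.88. The other cases drew attention because every library of one experiment moved one way and every library of another the opposite way, and these differences were not tested. The input of ZNF737 changed by 0.97 in Kelly cells at 6 days and by 1.32 in NGP, against a fitted -5.11 in the xenograft. That value rests on 23 and 74 input counts with the control and 1 and 0 with STM2457, so its size depends on the prior count of the fit and is no measure of the change. ZNF234 changed by 0.44 at 1 day in Kelly cells and by -0.96 in the xenograft, and ZNF114 by 0.59 and -0.43. ZNF628 changed by 0.56 at 1 day and 0.54 at 6 days in Kelly cells and by -1.92 in the xenograft. ZNF880 changed by -0.53 in Kelly cells at 6 days and by 0.75 in the xenograft. In the control pulldown, ZNF569 had a log2 ratio of 1.39 in NGP against -1.02, -2.22 and -1.57 in Kelly cells at 1 day, at 6 days and in the xenograft. The xenograft groups hold 2 libraries each, so libraries of genes without a change would often separate in this way. The share of all genes that did so was not counted.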

How the results depend on the processing

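Input changes at 1 day (18 members called) came to 11 with a replicate block and 0 when all 22 inputs shared 1 fit, and to 6 to 21 when 1 library was left out, with 6 and 8 without STM2457 replicates 2 and 1 and 10 without DMSO replicate 1. At 6 days (16) they came to 2 in that shared fit, 9 among members sharing no exon base, and 11 to 19 with a library left out. In NGP (0) they came to 6 in the shared fit, 1 with no filter, 2 with the block and 0 to 1 with a library left out. In the xenograft (0) they came to 36 in the shared fit and 0 to 31 with a library left out, the 31 without STM2457 replicate 1. Enriched members at 1 day (161) came to 89 at 10 CPM or more and 149 to 164 with a library left out. At 6 days (111) they came to 207 with mitochondrial scaling, 70 at 10 CPM or more, 73 sharing no exon base and 95 to 132 with a library left out. In NGP (137) they came to 72 at 10 CPM or more and 131 to 138 with a library left out. In the xenograft (3) they came to 23 by DESeq2, 8 with no filter, 1 with the block, 0 with mitochondrial scaling and 0 to 20 with a library left out. Enrichment changes at 1 day (5) came to 11 by DESeq2, 159 with mitochondrial scaling, 2 with the block, 3 sharing no exon base and 0 to 14 with a library left out, and at 6 days (0) to 4, 31 with mitochondrial scaling and 0 to 6. The difference between Kelly times (2) came to 4 by DESeq2, 5 with no filter, 0 with the block, 0 sharing no exon base and 0 to 6 with a library left out. The difference between Kelly and NGP (0) came to 1 by DESeq2, 1 with no filter and 0 to 1 with a library left out.

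Mitochondrial scaling reversed the 6 day control ratios of ZNF428 (2.46) and ZNF358 (3.25) and the 1 day enrichment changes of ZNF561 (-0.93), ZNF548 (-0.91) and ZNF432 (-0.85). Of 944 alternative values of 68 named gene results, 743 kept their direction and side of the threshold, 196 kept the direction alone and 5 reversed. The cause was not tested. Same-numbered DMSO and STM2457 libraries of 1 type deviated together in no experiment as a whole (correlations from -0.366 to 0.419). Input was not set against RIP of the same number, and the xenograft gives a single value per type. A pairing by number is therefore not excluded. With a replicate block the NGP input calls over all genes went from 254 up and 266 down to 424 and 446. With the xenograft numbers crossed, since same-numbered RIP libraries gave -0.224, 0 members were called in input, 4 were enriched and 0 changed enrichment, an alternative chosen after seeing the data. Low counts in NGP and xenograft inputs limit the smallest changes that could be called.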
